A study of Mus musculus with 42 samples.

Results

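The genes of GABA and glutamate neurotransmission were examined in the hypothalamus of C57/BL6 mice, all of them adult males of wild type. The members were the 6 rows, of 37907 genes measured, whose Ensembl identifiers map to Slc17a6, Slc17a7, Slc17a8, Slc32a1, Gad1 and Gad2, and they were chosen by name for their role and not by their values. Expression was measured by RNA-seq in the arcuate nucleus (ARC), ventromedial hypothalamus (VMH), dorsomedial hypothalamus (DMH) and paraventricular nucleus (PVN), each cut from stained frozen sections by laser-capture microdissection. Mice had free access to food (fed) or had been fasted for 24 hours, which gave 8 groups: the ARC with 5 fed and 5 fasted libraries, the VMH with 6 of each, the DMH with 5 and 4, and the PVN with 6 and 5. No mouse behind these 42 libraries carried a deletion or transgene, and no agent was given.

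A neuron that releases GABA typically makes it from glutamate with glutamate decarboxylase, of which GAD67 (Gad1) and GAD65 (Gad2) are separate gene products, and loads it into vesicles with the vesicular GABA transporter (Slc32a1). A neuron that releases glutamate loads it with one of the vesicular glutamate transporters VGLUT1 (Slc17a7), VGLUT2 (Slc17a6) or VGLUT3 (Slc17a8), and VGLUT2 is the form that most hypothalamic glutamate neurons use. The VMH is known as a largely glutamatergic nucleus, the PVN holds glutamatergic neuroendocrine neurons with GABA neurons around it, and the ARC and DMH mix both kinds, including the GABA-releasing Agrp neurons of the ARC.

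The members lie at chr2:70553072-70602014 (Gad1), chr2:22622205-22693874 (Gad2), chr2:158610767-158615748 (Slc32a1), chr7:51622006-51671119 (Slc17a6), chr7:45163949-45176142 (Slc17a7) and chr10:89574020-89621253 (Slc17a8) on GRCm38. All are protein coding, and Slc17a8 alone is on the minus strand. Slc32a1 shares 24.9% of its exon bases with Gm14205, a gene annotated on the opposite strand, and the library kit does not mark strand, so reads of the pair cannot be told apart there. For Gad1, 1.45% of its 50-base stretches recur in the pseudogene Gad1-ps. The other members shared no exon bases with another gene.

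The sequence just upstream of the start is shown for the 4 members that were above 5 RPKM in at least 1 nucleus, because 3 of them followed the same order of nuclei and Slc17a6 another. These windows come from RefSeq on GRCm38.p6, are written 5′ to 3′ on the gene's strand, belong to the first start listed, and were cut where they ran into an annotated exon, which shortened those of Gad1 and Gad2. Capitals mark a match to 1 of 4 short motifs searched on both strands: TAATTA (the core of many homeodomain sites, those of DLX factors included), TGACGTCA (the cyclic AMP response element), TATAAA (the TATA box) and GGGCGG (the GC box). The windows are chr2:70561879-70562041 for Gad1 (163 bases), chr2:22622077-22622204 for Gad2 (128 bases), chr2:158610508-158610757 for Slc32a1 (250 bases) and chr7:51621580-51621829 for Slc17a6 (250 bases). RefSeq starts need not be those of the gene spans above, and that of Gad1 lies inside its span, downstream of the span's first base.
Gad1: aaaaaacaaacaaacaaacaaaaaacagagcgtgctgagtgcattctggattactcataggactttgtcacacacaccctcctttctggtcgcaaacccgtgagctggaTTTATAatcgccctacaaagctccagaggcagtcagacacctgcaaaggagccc
Gad2: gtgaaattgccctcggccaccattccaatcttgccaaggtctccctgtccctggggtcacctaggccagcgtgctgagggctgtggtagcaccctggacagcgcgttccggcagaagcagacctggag
Slc32a1: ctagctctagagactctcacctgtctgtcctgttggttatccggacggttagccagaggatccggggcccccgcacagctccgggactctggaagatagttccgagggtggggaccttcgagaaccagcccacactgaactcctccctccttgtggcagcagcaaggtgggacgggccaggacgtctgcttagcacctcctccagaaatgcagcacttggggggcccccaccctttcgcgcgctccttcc
Slc17a6: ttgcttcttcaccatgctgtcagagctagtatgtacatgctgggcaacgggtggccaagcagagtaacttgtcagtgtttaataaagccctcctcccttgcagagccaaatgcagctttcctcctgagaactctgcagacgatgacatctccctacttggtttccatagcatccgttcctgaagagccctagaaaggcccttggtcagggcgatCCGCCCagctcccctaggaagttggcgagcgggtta
The Gad1 window held 1 TATAAA, read on the other strand, and the Slc17a6 window 1 GGGCGG, also on the other strand. Slc17a6 had another listed start, whose window (chr7:51624387-51624636) is not shown and held 1 TAATTA and none of the other 3 motifs. The Gad2 and Slc32a1 windows held none of the 4 motifs. Among 32851 windows of 250 bases over all genes, 4.84% held TAATTA, 1.55% TGACGTCA, 12.4% TATAAA and 32.7% GGGCGG. Those windows were not cut at exons, so these rates do not apply to the shorter windows of Gad1 and Gad2. The G and C content was 46.6% for Gad1 against 62.5% for Gad2 and 62.4% for Slc32a1, and 53.2% for Slc17a6, and the 3 genes of the GABA pathway had no searched motif in common in these windows.

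The values were deposited as RPKM (reads scaled to gene length and to library depth). Estimated depth was 4.57 M reads on average and ranged from 1.33 to 13.2 M. The table fell into 3 sets of 10, 16 and 16 libraries. Libraries of a set had at least 12982 exact values in common and libraries of different sets at most 6955, and the mean log2 RPKM of each member was the same in the 3 sets to within 8.51e-08. Over all genes the median gap between the set means was 7.8e-08. The deposited values had thus been brought to common set means. Levels, differences and p-values given here are of values adjusted in this way. Sets 2 and 3 held 4 libraries of each nucleus. Set 1 held 2 ARC, 4 VMH, 1 DMH and 3 PVN libraries, with 0 fasted DMH libraries. The labels name no batch, although the study's methods give 3 rounds of capture and library preparation. Because the set means were equal while set 1 had another mix of nuclei, the differences were also computed within each set and in sets 2 and 3 alone, where every nucleus has the same number of libraries. Markers of the labelled nuclei were highest where the labels put them. Pomc averaged 518 RPKM in the fed ARC and at most 19.4 in the other fed nuclei, Fezf1 averaged 94.99 in the fed VMH and at most 4.24 elsewhere, Npvf 103 in the fed DMH and at most 2.50 elsewhere, and Sim1 19.1 in the fed PVN and at most 1.58 elsewhere. Agrp, a gene that rises with hunger, rose from 133 to 409 RPKM in the fasted ARC (limma adjusted p = 0.0613). The same brains gave several nuclei and the labels do not tie libraries to mice, so p-values measure the spread between libraries. In tissue of this kind, fewer cells of a type and less RNA per cell cannot be told apart.

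The first question was how the members are distributed over the 4 nuclei. The GABA genes Slc32a1, Gad1 and Gad2 were high in the DMH and ARC, lower in the PVN and lowest in the VMH, and Slc17a6 was highest in the VMH, followed by the PVN, DMH and ARC, in fed and in fasted mice alike. Across the 4 fed nuclei 5 of 6 members differed (limma F test, adjusted p under 0.1), where 12.4% of 33579 genes did, and across the fasted nuclei 4 of 6 differed, where 11.9% of genes did. Slc17a7 passed in neither state, and Slc17a8 passed in the fed state alone, with adjusted p = 0.0115 fed and 0.628 fasted. Of the 36 pairwise differences between fed nuclei (6 members, 6 pairs), 22 were called. In fasted mice 19 of 36 were called. Over all genes, 5.56% of fed and 5.42% of fasted pairwise differences were called. In sets 2 and 3 alone, an alternative added after seeing the data, the members' counts were 24 and 24, with 5.6% and 5.57% over all genes.

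**Figure D1:**
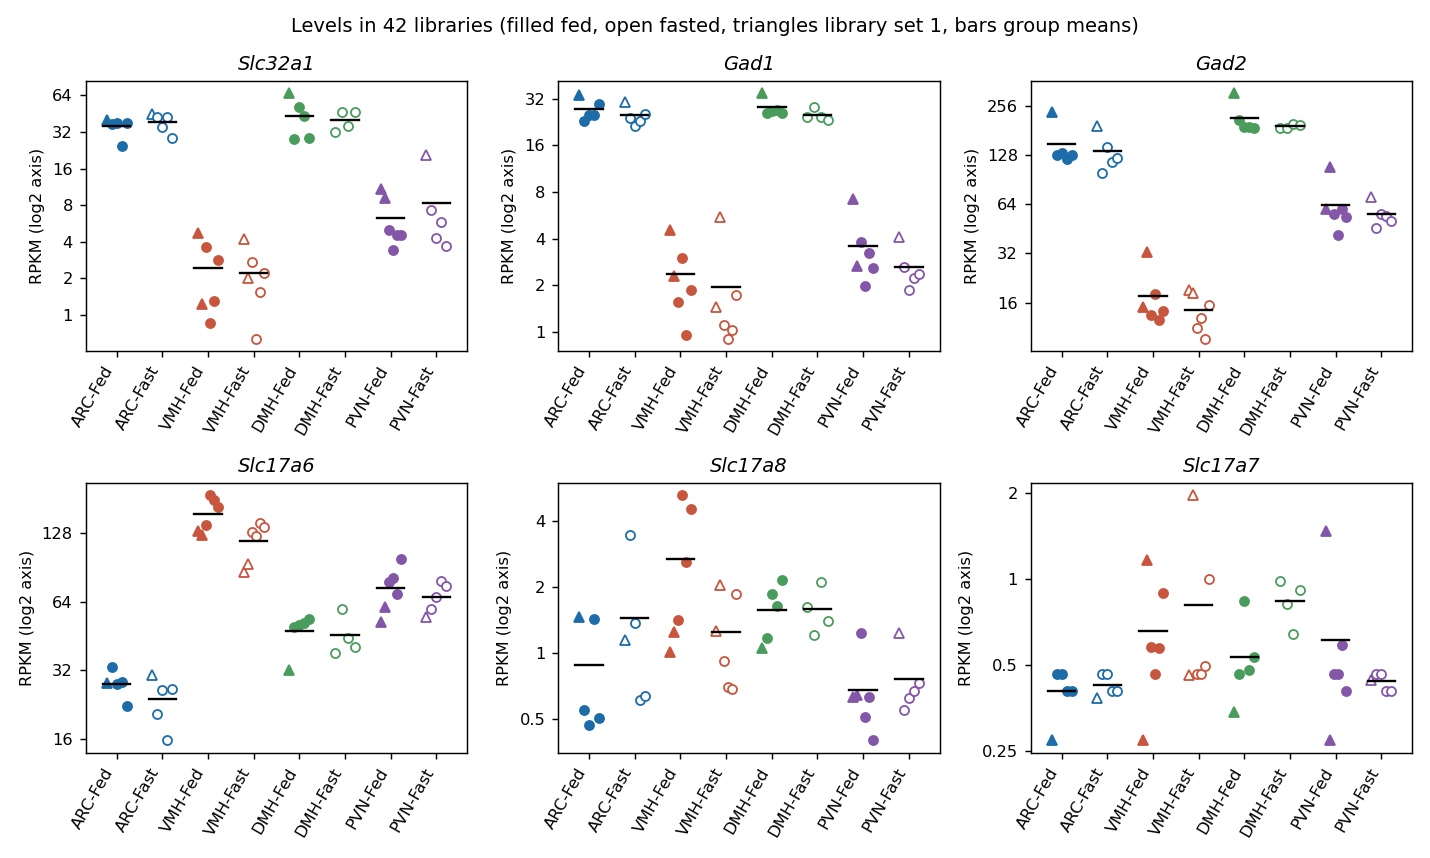
RPKM of the 6 members (log2 axis) in each of the 42 libraries, by nucleus and state, with fed libraries filled, fasted libraries open, library set 1 as triangles and bars for group means. Slc32a1, Gad1 and Gad2 sit high in the ARC and DMH and low in the VMH, and Slc17a6 is highest in the VMH, where the fed mean was 155 RPKM.

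Slc32a1, the transporter that loads GABA into vesicles, was measured at 40.3, 37.5, 38.1, 24.5 and 38.0 RPKM in the 5 fed ARC libraries. The 5 fed DMH libraries had 66.6, 28.3, 51.1, 43.6 and 28.4 RPKM. In the fed VMH the lowest of 6 libraries had 0.863, the median was 2.09 and the highest 4.73 RPKM. Every fed ARC and DMH library was thus above every fed VMH library. The fed PVN lay between, with a lowest value of 3.41, a median of 4.77 and a highest of 10.8 RPKM, and its range overlapped that of the VMH but not those of the ARC and DMH. The fed ARC mean (35.7 ± 6.36 RPKM, SD, n = 5) was 14.6 times the VMH mean (2.44 ± 1.56, n = 6), a difference of 3.52 on the log2(RPKM + 1) scale (SE 0.331, limma adjusted p = 6.68e-10). Within the 3 library sets this difference was 3.53, 3.72 and 3.40. VMH minus PVN (6.24 ± 2.99 RPKM, n = 6) was −1.10 (SE 0.316, adjusted p = 0.0216). That difference was −1.61 within set 1 (adjusted p = 0.0859), and −0.80 and −0.89 within sets 2 and 3, where it was not called, and −0.85 in sets 2 and 3 together (adjusted p = 0.0686). Between ARC and DMH Slc32a1 differed by −0.23 (interval −0.93 to 0.48) in fed and −0.06 (interval −0.80 to 0.69) in fasted mice, so their order was not resolved.

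Gad1, which encodes the decarboxylase that supplies most of the cell's GABA, had 33.6, 22.8, 25.3, 25.1 and 29.4 RPKM in the fed ARC. It had 34.6, 25.8, 26.8, 27.2 and 25.9 RPKM in the fed DMH. These 2 nuclei overlapped, and their means of 27.2 ± 4.28 and 28.1 ± 3.72 (SD, n = 5 each) differed by −0.05 on the log2 scale (ARC minus DMH, 95% interval −0.57 to 0.48). The fed VMH ranged from 0.961 through a median of 2.08 to 4.56 RPKM, and the fed PVN from 1.97 through 2.94 to 7.16. VMH and PVN values of Gad1 overlapped, with a difference of −0.43 (VMH minus PVN, interval −0.91 to 0.04, adjusted p = 0.358) in fed and −0.42 (interval −0.92 to 0.08, adjusted p = 0.430) in fasted mice. The fasted difference was called without the second fasted VMH library (−0.68, adjusted p = 0.0415), which stood at 5.54 RPKM while the next fasted VMH value was 1.73. In sets 2 and 3 alone both states were called, with −0.48 (adjusted p = 0.0656) in fed and −0.58 (adjusted p = 0.0178) in fasted mice. Fed ARC exceeded fed VMH by 3.13 (SE 0.247, adjusted p = 9.38e-12) and fed PVN by 2.70 (SE 0.247, adjusted p = 5.65e-10).

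Gad2, which encodes the decarboxylase associated with synaptic vesicles, had the highest RPKM of the 3 GABA genes in each of the 8 groups. The fed DMH libraries had 307, 212, 191, 192 and 189 RPKM, and the fasted ones 188, 189, 199.6 and 196. The fed ARC libraries had 237, 129, 132, 122 and 129 RPKM, and the fasted ones 194, 99.5, 144, 116 and 123. In both nuclei a set 1 library was the highest fed value, and without set 1 the fed ranges were 189 to 212 in the DMH and 122 to 132 in the ARC, which do not overlap. Over all libraries ARC minus DMH was −0.56 in fed mice (SE 0.231, interval −1.03 to −0.09, adjusted p = 0.315) and −0.55 in fasted mice (interval −1.04 to −0.05, adjusted p = 0.350), so neither was called. With the library set in the limma model these differences were −0.56 (adjusted p = 0.0340) and −0.67 (adjusted p = 0.0132), and in sets 2 and 3 alone −0.61 (adjusted p = 0.0044) and −0.69 (adjusted p = 0.0012). Within the sets the fed difference was −0.37, −0.62 and −0.60, and the fasted one −0.65 and −0.72 in the 2 sets that had both nuclei. The DMH was thus higher in 5 of 5 comparisons within a set, and the call depended on how set 1 was treated.

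In the PVN, Gad2 was well above its VMH level, whereas the call for Gad1 depended on the libraries used. The fed PVN libraries ranged from 41.6 through a median of 57.8 to 108 RPKM, and the fed VMH libraries from 12.4 through 14.6 to 32.5, without overlap. The difference was −1.80 (VMH minus PVN, SE 0.21, adjusted p = 6.94e-08) in fed and −1.90 (SE 0.221, adjusted p = 6.64e-08) in fasted mice. Within the sets it was −1.81, −1.57 and −2.01 in fed mice. The PVN was still below the DMH in fed mice (DMH minus PVN 1.81, SE 0.221, adjusted p = 6.15e-07).

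The proportion of Gad2 to Gad1 is given as a description. The ratio of their RPKM values averaged 5.42 in 10 ARC libraries (range 4.14 to 7.06), 7.74 in 9 DMH libraries (6.72 to 8.86), 9.30 in 12 VMH libraries (3.29 to 14.2) and 21.3 in 11 PVN libraries (8.34 to 40.7). In sets 2 and 3 alone the ranges were 4.14 to 6.71, 6.72 to 8.47, 6.06 to 14.2 and 14.8 to 29.8, so every PVN library there was above every library of the other nuclei. Gad1 was at 1.87 to 4.12 RPKM in all but 1 of the PVN libraries, so the denominator is small, and the absolute ratio depends on the gene lengths the authors divided by. The ratio between nuclei does not depend on those lengths.

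Slc17a6 (VGLUT2) was the glutamate transporter that the nuclei differed in most. The 6 fed VMH libraries ranged from 125 through a median of 153 to 188 RPKM. The fed PVN ranged from 52.3 through 73.7 to 98.9 RPKM. The 5 fed DMH libraries had 32.1, 49.7, 50.5, 51.7 and 53.5 RPKM, and the 5 fed ARC libraries 28.2, 33.2, 27.9, 28.4 and 22.3. The VMH stood clear of all other nuclei. The fed PVN touched the fed DMH through its lowest library, which was of set 1. The DMH touched the ARC through a single DMH library, also of set 1. Fed VMH was 2.11 times the fed PVN mean (1.08 on the log2 scale, SE 0.161, adjusted p = 7.99e-06), 3.26 times the DMH mean (1.69, SE 0.169, adjusted p = 6.27e-09) and the fed ARC mean was 0.181 times the VMH mean (ARC minus VMH −2.42, SE 0.169, adjusted p = 5.11e-13). Within the 3 sets the ARC minus VMH difference was −2.14, −2.37 and −2.73.

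The steps of Slc17a6 lower in the order were smaller. The fed ARC was below the fed DMH (ARC minus DMH −0.73, SE 0.177, adjusted p = 0.0161), with −0.18, −0.70 and −1.03 within the sets. In fasted mice it was −0.91 (SE 0.187, adjusted p = 0.00329), and the fasted ARC values of 30.5, 20.7, 26.2, 15.8 and 26.4 RPKM were all below the fasted DMH values of 38.1, 59.3, 44.4 and 40.3. DMH minus PVN was −0.61 in fed mice (SE 0.169, adjusted p = 0.0401) and −0.56 in fasted mice (SE 0.187, adjusted p = 0.146). The fed call was lost without the first fed DMH library (−0.48, adjusted p = 0.192) or the sixth fed PVN library (−0.52, adjusted p = 0.128). Without set 1 the fed ranges did not overlap, at 49.7 to 53.5 RPKM in the DMH and 69.4 to 98.9 in the PVN. Within the sets the fed difference was −0.79, −0.65 and −0.65. It was not called within set 2 (adjusted p = 0.241) or set 3 (adjusted p = 0.241). The fasted difference was called without the second fasted DMH library (−0.69, adjusted p = 0.0757) or without set 1 (−0.62, adjusted p = 0.0174). Fasted VMH was above fasted PVN by 0.80 (SE 0.169, adjusted p = 0.00128) and above fasted ARC (ARC minus VMH −2.27, SE 0.169, adjusted p = 2.51e-12).

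Some other neuronal and oligodendrocyte genes were also higher in the VMH. The summed RPKM of 12 presynaptic vesicle genes was 1828 to 2124 in the fed VMH, 1279 to 1593 in the PVN, 1263 to 1469 in the DMH and 1062 to 1296 in the ARC. Snap25, a core part of the vesicle fusion machinery, averaged 813 RPKM in the fed VMH and 314 in the fed ARC, a difference of −1.37 (ARC minus VMH, SE 0.0852, adjusted p = 2.8e-14), beside −2.42 for Slc17a6. The summed level of 8 neuron markers was 748 to 866 RPKM in the fed VMH, 686 to 804 in the PVN, 512 to 647 in the DMH and 488 to 603 in the ARC, and 3 of the 8, Rbfox3, Nefl and Nefm, had their highest fed mean in the VMH. The summed level of 6 oligodendrocyte markers was 209 to 336 RPKM in the fed VMH, 111 to 188 in the DMH, 83.1 to 130.4 in the PVN and 80.3 to 122 in the ARC. Sums of astrocyte and of microglial markers overlapped between the VMH and each other nucleus. Their part in the Slc17a6 difference was not tested. When the libraries were put on a common mean of the presynaptic genes, ARC minus VMH was called for Slc17a6, Slc32a1, Gad1 and Gad2 in both states, with −1.80, 4.14, 3.75 and 3.66 in fed mice. That scaling moved the median of all genes by 0.62 for fed ARC minus VMH. It called 28310 of 33579 genes across the fed nuclei, against 4172 without it, so these calls do not set the members apart from other genes.

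Taken library by library, the ratio of the 2 main vesicular transporters set the ARC and DMH apart from the PVN and VMH, again as a description. The ratio of Slc17a6 to Slc32a1 RPKM was 20.3 to 218 in the 12 VMH libraries, 2.67 to 23.8 in the 11 PVN libraries, 0.482 to 1.88 in the 9 DMH libraries and 0.368 to 1.16 in the 10 ARC libraries. Over all libraries ARC and DMH overlapped, as did PVN and VMH. The low end of the PVN, 2.67, was the first fasted PVN library, described further on, and the 8 PVN libraries of sets 2 and 3 ranged from 8.08 to 23.8. The 8 VMH libraries of those sets ranged from 38.2 to 218, so PVN and VMH did not overlap there, whereas ARC and DMH still did. On the scale log2((Slc32a1 + 1)/(Slc17a6 + 1)) the fed groups averaged 0.33 ± 0.36 in the ARC, −0.18 ± 0.77 in the DMH, −3.43 ± 0.84 in the PVN and −5.61 ± 0.81 in the VMH (SD). The fasted groups averaged 0.69 ± 0.51, −0.17 ± 0.25, −3.09 ± 1.05 and −5.26 ± 0.76 in the same order.

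Slc17a8 (VGLUT3) was near the low end of what the libraries resolve. In the fed VMH it had a lowest value of 1.002, a median of 2.004 and a highest of 5.24 RPKM, against 1.45, 0.547, 0.466, 1.43 and 0.504 RPKM in the fed ARC. The fed PVN ranged from 0.398 through 0.627 to 1.24 RPKM. The fed VMH overlapped both. VMH minus PVN was 1.01 (SE 0.241, adjusted p = 0.00448) and ARC minus VMH −0.86 (SE 0.252, adjusted p = 0.0296). The latter was lost without VMH-Fed 4 (−0.68, adjusted p = 0.110) or VMH-Fed 6 (−0.72, adjusted p = 0.102), and within set 1 it was 0.21. VMH minus PVN was 0.38 within set 1 and 1.08 within set 2, neither called, and 1.56 within set 3 (adjusted p = 0.0255). In fasted mice 0 of its 6 pairwise differences were called by limma, and 0 had an unadjusted p under 0.05.

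Slc17a7 (VGLUT1), the transporter of cortical and many thalamic glutamate neurons, was at or near the floor. Its values correspond to 0 reads in 22 of the 42 libraries, and a count of 0 allows up to 3 reads. No read was counted in any of the 5 fed ARC libraries and in 4 of the 5 fasted ones. The highest count was 21 reads, in the first fed PVN library (1.47 RPKM), followed by 18 in a fasted DMH library that was also the deepest. The 4 fasted DMH libraries all had reads, from 3 to 18, where the 5 fed ones had 0 to 3, and fasted DMH libraries were deeper (4.78 to 13.2 M against 2.94 to 5.05 M). No fold is given for this gene.

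Called differences were shared out over the pairs of nuclei as follows. Between fed ARC and VMH 5 of 6 members were called (7.9% of all genes, 3.83% higher in the ARC and 4.07% lower), 3 of them higher in the ARC and 2 lower. ARC and PVN differed in 4 (4.13%), VMH and DMH in 4 (5.24%), VMH and PVN in 4 (9.84%) and DMH and PVN in 4 (3.42%). Fed ARC and DMH differed in 1 member, Slc17a6 (2.79% of genes). In fasted mice the counts were 4 for ARC and VMH (8.91%), 4 for ARC and PVN (4.19%), 4 for VMH and DMH (3.94%), 3 for VMH and PVN (9.24%), 3 for DMH and PVN (3%) and 1 for ARC and DMH (3.21%). The fasted libraries came from other mice than the fed ones, and the order of means of Slc32a1, Gad1, Gad2 and Slc17a6 was the same in them. Fasted ARC minus VMH was 3.68 for Slc32a1 (SE 0.331, adjusted p = 2.3e-10), 3.27 for Gad1 (SE 0.247, adjusted p = 3.09e-12) and 3.15 for Gad2 (SE 0.221, adjusted p = 5.64e-13).

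The second question was whether a fast of 24 hours changed the members within a nucleus. By limma, 0 of 6 members were called in the ARC, where 0.0566% of all genes were. The count was 0 of 6 also for the VMH (background 0.131%), DMH (0.0238%) and PVN (0.0715%). In sets 2 and 3 alone the count was 0 in each nucleus as well, with 0.0409% over all genes and nuclei. At an unadjusted p under 0.05 there were 2 members in the VMH and 0 in the other nuclei. No share of all genes is given for that level, so this count is not read as a result. Two-sided exact permutation tests of the 24 member and nucleus pairs gave an unadjusted p under 0.05 in 2, Slc17a6 in the VMH (p = 0.0433) and Slc17a7 in the DMH (p = 0.0476). The smallest p these tests allow is 0.00794 for the ARC, 0.00216 for the VMH, 0.0159 for the DMH and 0.00433 for the PVN.

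In the VMH, Slc17a6 had 125, 153 and 188 RPKM (lowest, median, highest) in fed and 85.9, 127 and 141 in fasted libraries. The groups overlapped, and the means of 155 ± 26.6 and 118 ± 22.997 (SD, n = 6 each) differed by −0.39 (fasted minus fed, SE 0.161, 95% interval −0.72 to −0.06, unadjusted limma p = 0.0205, adjusted p = 0.537, unadjusted exact permutation p = 0.0433). Within the sets the difference was −0.51, −0.35 and −0.32, and leaving out any 1 library gave −0.45 to −0.31. The summed level of the 8 neuron markers was 748 to 866 RPKM in the fed and 641 to 821 in the fasted VMH, and its part in this difference was not tested. Slc17a8 had 1.002, 2.004 and 5.24 RPKM in fed and 0.681, 1.09 and 2.04 in fasted VMH libraries, with overlap and a difference of −0.61 (SE 0.241, interval −1.10 to −0.12, unadjusted p = 0.0163, adjusted p = 0.510, unadjusted exact permutation p = 0.104). Its within-set values were 0.31, −1.11 and −1.03, so set 1 had the opposite sign.

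For the GABA genes the fasting differences had intervals around 0 in every nucleus. Gad1 had −0.12 (−0.64 to 0.40) in the ARC, −0.26 (−0.74 to 0.22) in the VMH, −0.16 (−0.71 to 0.40) in the DMH and −0.27 (−0.77 to 0.23) in the PVN. Gad2 had −0.13 (−0.60 to 0.34), −0.24 (−0.66 to 0.19), −0.15 (−0.65 to 0.35) and −0.13 (−0.58 to 0.32) in the same order. Slc32a1 had 0.12 (−0.59 to 0.82), −0.05 (−0.69 to 0.59), −0.05 (−0.79 to 0.69) and 0.22 (−0.45 to 0.89). A difference of 1 on this scale lies outside each of these intervals, and the scale understates changes of genes as low as Gad1 and Slc32a1 are in the VMH. Set 1 held 1 fed and 0 fasted DMH libraries, and 2 fed and 1 fasted PVN libraries, so these differences include its offset. In sets 2 and 3 alone, DMH means were 196 RPKM fed and 193 fasted for Gad2. They were 26.4 and 25.0 for Gad1, and 37.8 and 40.4 for Slc32a1. PVN means there were 52.6 and 51.6 for Gad2, 2.89 and 2.27 for Gad1, and 4.37 and 5.30 for Slc32a1. Slc17a6 outside the VMH had −0.24 (−0.60 to 0.12) in the ARC, −0.06 (−0.44 to 0.32) in the DMH and −0.11 (−0.46 to 0.23) in the PVN.

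The fasting change was also tested for a difference between nuclei. By the limma F test of the interaction 0 of 6 members were called, 0 had an unadjusted p under 0.05, and 0.00596% of all genes were called. The value of Slc17a6 in the VMH was thus not shown to differ from its values in the other nuclei.

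**Figure D2:**
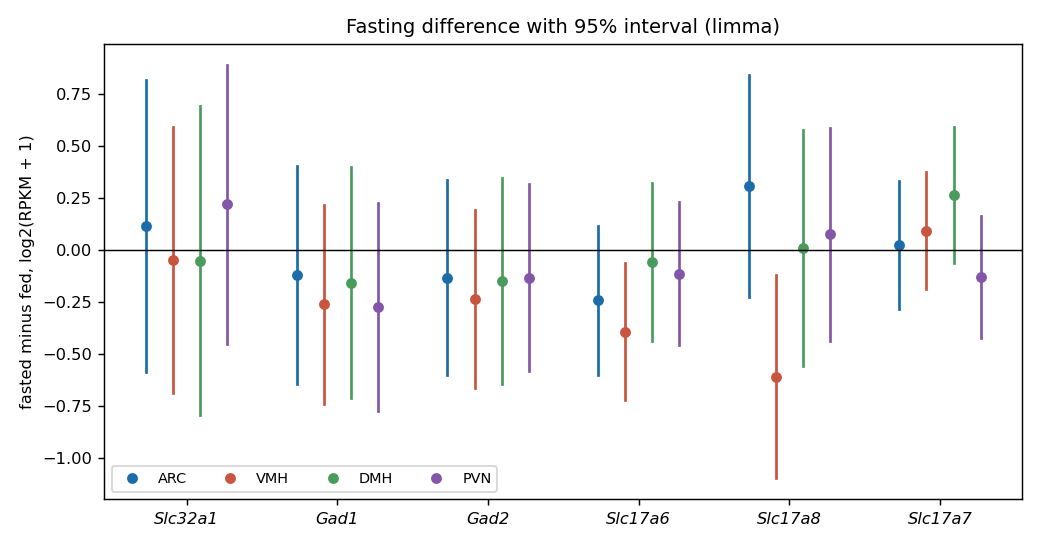
Fasted minus fed difference on the log2(RPKM + 1) scale with its 95% interval from limma, for each member in the 4 nuclei. The intervals include 0 except those of Slc17a6 (−0.72 to −0.06) and Slc17a8 (−1.10 to −0.12) in the VMH, neither of which passed after adjustment over all genes.

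Other genes of the pathway were followed in lists. Of 6 genes of GABA uptake and breakdown, 4 differed across the fed nuclei, where 12.4% of all genes did, and 2 in sets 2 and 3 alone, where 11.8% did. Slc6a11, the mainly astrocytic GABA transporter GAT3, was highest in the DMH, at 172 RPKM against 121 in the ARC (ARC minus DMH −0.50, SE 0.108, adjusted p = 0.00538). Abat, the GABA transaminase, was 0.55 higher in the ARC than in the PVN (SE 0.134, adjusted p = 0.00983), with overlap. With fasting, 0 of these 6 genes were called in any nucleus by limma, and an unadjusted p under 0.05 was found for Aldh5a1, which encodes a dehydrogenase of GABA breakdown, in the ARC (−0.23) and the PVN (−0.23).

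Of 12 genes of glutamate supply, uptake and recycling, 8 differed across the fed nuclei (12.4% of all genes) and 5 in sets 2 and 3 alone (11.8%), and between ARC and VMH 1 was higher and 7 were lower in the ARC, where 4.07% of all genes were lower. Got1, the cytosolic aspartate aminotransferase, averaged 83.3 RPKM in the fed ARC and 168 in the VMH (−0.98, SE 0.127, adjusted p = 6.35e-07). Glul, the glutamine synthetase of astrocytes that returns transmitter glutamate as glutamine, averaged 166 in the fed ARC and 295 in the VMH (−0.83, SE 0.0959, adjusted p = 7.25e-08). Slc38a1, a neuronal glutamine transporter, was the one that went the other way, with 49.1 RPKM in the ARC and 35.2 in the VMH (0.47, SE 0.0854, adjusted p = 0.000171).

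Glul was also the only gene of both lists that was called with fasting. It rose from 222 ± 16.9 to 370 ± 36.2 RPKM in the DMH (0.73, SE 0.106, adjusted p = 0.00136), without overlap, from 206 ± 34.9 to 288 ± 29.6 in the PVN (0.49, SE 0.0959, adjusted p = 0.0349) and from 166 ± 17.7 to 237 ± 29.1 in the ARC (0.51, SE 0.10, adjusted p = 0.0502). In the VMH it had 295 ± 32.5 and 356 ± 30.9 RPKM (0.27, SE 0.0915, adjusted p = 0.391). The PVN call was lost without PVN-Fast 3 (0.44, adjusted p = 0.124) or PVN-Fed 4 (0.44, adjusted p = 0.116), and in sets 2 and 3 alone (0.49, adjusted p = 0.164). The ARC call was lost without any 1 of 5 libraries, ARC-Fast 1 and 4 and ARC-Fed 2, 3 and 4, with differences of 0.46 to 0.51 and adjusted p of 0.104 to 0.141. In fits on the libraries of 1 nucleus alone, the DMH, PVN and ARC differences had adjusted p of 0.207, 0.695 and 0.594. The summed level of 6 astrocyte markers was 103 to 135 RPKM in the fed and 92.3 to 124 in the fasted DMH. It was 95.7 to 130 in the fed and 88.4 to 108 in the fasted PVN. In the ARC it was 86.3 to 117 fed and 75.9 to 104 fasted. The part of these markers in the Glul differences was not tested.

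Of 11 transcription factors of GABA neurons that could be tested (12 listed), 7 differed across the fed nuclei, where 12.4% of all genes did. All 7 were called higher in the ARC than in the VMH, as 3.83% of all genes were. Dlx1, a homeodomain factor of GABA neuron development, averaged 20.5 RPKM in the fed DMH, 13.4 in the ARC, 2.43 in the PVN and 0.438 in the VMH (VMH minus DMH −3.91, SE 0.262, adjusted p = 5.83e-13), which is the order of Slc32a1. Isl1, a LIM homeodomain factor of several ARC neuron types, had another order: 17.1 RPKM in the ARC, 7.66 in the DMH, 4.88 in the VMH and 0.546 in the PVN (ARC minus PVN 3.54, SE 0.263, adjusted p = 3.4e-12). Six3 was 7.35 RPKM in the ARC and 1.45 in the DMH (1.78, SE 0.245, adjusted p = 9.4e-06), so ARC and DMH, whose Gad1 difference was not called, differed in these factors. Of 7 factors of forebrain glutamate neurons that could be tested (8 listed), 5 differed. Fezf2 was highest in the PVN (22.9 ± 13.5 RPKM against 0.552 in the VMH, VMH minus PVN −3.78, SE 0.27, adjusted p = 5.36e-13).

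Slc18a2, the vesicular monoamine transporter, was high in the ARC and DMH too, with 16.01 RPKM in the fed ARC, 13.7 in the DMH, 4.09 in the PVN and 2.61 in the VMH (ARC minus VMH 2.24, SE 0.317, adjusted p = 3.63e-06). It was the only one of 3 other vesicular transporters tested that differed across the fed nuclei, where 12.4% of all genes did.

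**Figure D3:**
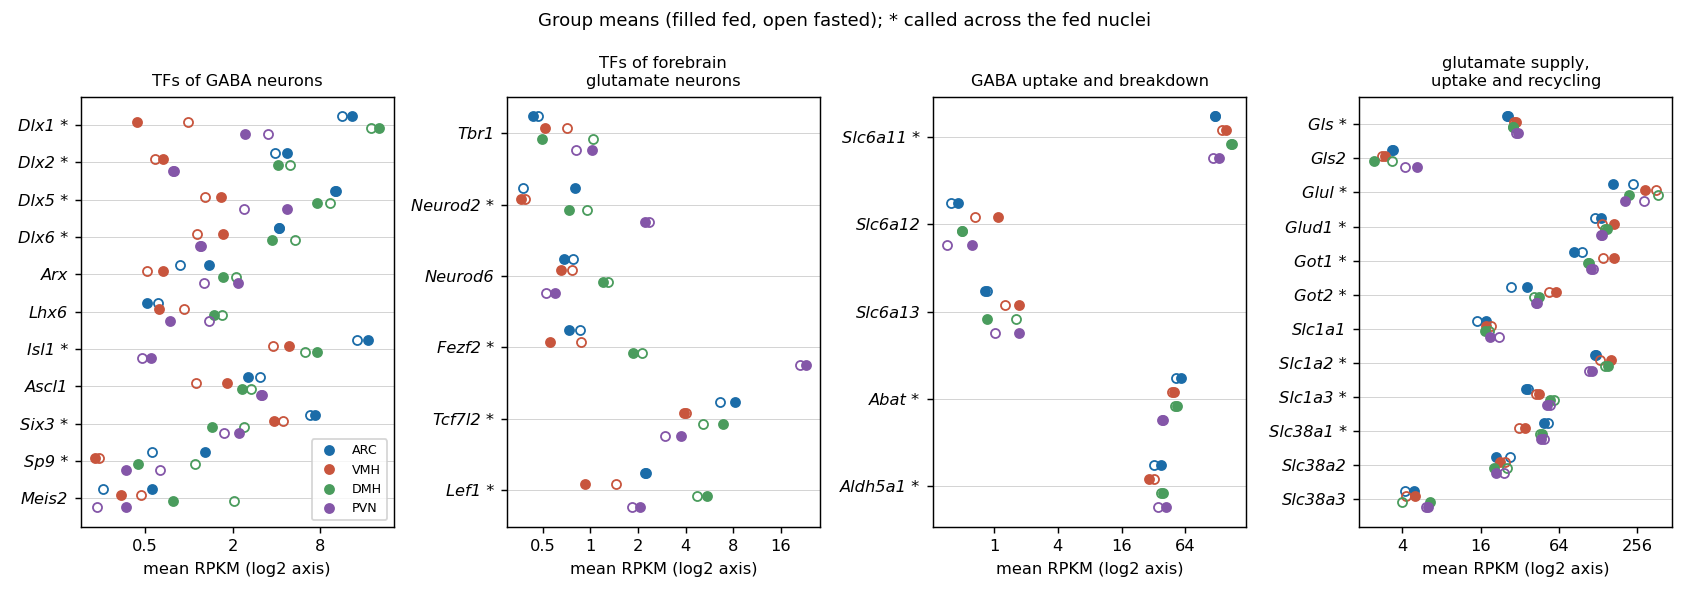
Mean RPKM (log2 axis) of genes of 4 lists in the 4 nuclei, fed filled and fasted open, with an asterisk for genes called across the fed nuclei. Dlx1 follows the order DMH, ARC, PVN, VMH of Slc32a1, while Isl1 and Six3 are highest in the ARC and Fezf2 in the PVN.

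Among 13442 genes above 5 RPKM in at least 1 group, those most like each member over the 42 libraries were found by Pearson's r of log2(RPKM + 1), as a description, since libraries of a nucleus share their tissue. Slc32a1 was most like Dlx1 (r = 0.940), Gad1 (0.939) and Nrxn3 (0.919), a presynaptic adhesion gene. Gad1 was most like Slc32a1 (0.939), Fzd5 (0.925) and Bsx (0.915), a homeobox gene of the ARC and DMH. Gad2 was most like Gal (0.966), which encodes the neuropeptide galanin, Nrxn3 (0.956) and Dlx1 (0.939). Slc17a6 was most like Napb (0.945), which encodes a vesicle fusion protein, Nefl (0.944), a neurofilament gene, and Adcyap1 (0.936), which encodes the neuropeptide PACAP.

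The 10 libraries of set 1 stood apart from the others in the GABA genes. Of the 7 groups that set 1 holds a library of, its libraries were all above the rest of the group for Gad2 in 6, Slc32a1 in 5 and Gad1 in 4, and all below for Slc17a6 in 5. With the 8 groups in the model, set 1 minus the mean of sets 2 and 3 was 0.63 for Gad2, 0.57 for Gad1, 0.70 for Slc32a1 and −0.33 for Slc17a6. No test is given for this offset. Each member has the same mean in the 3 sets, while set 1 has 4 VMH, 3 PVN, 2 ARC and 1 DMH libraries and the other sets have 4 of each. From the group means of sets 2 and 3, that mix under equal set means gives an offset of 0.63 for Gad2, 0.64 for Gad1, 0.72 for Slc32a1 and −0.34 for Slc17a6. Levels in set 1 libraries are therefore not directly comparable with those in sets 2 and 3.

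**Figure D4:**
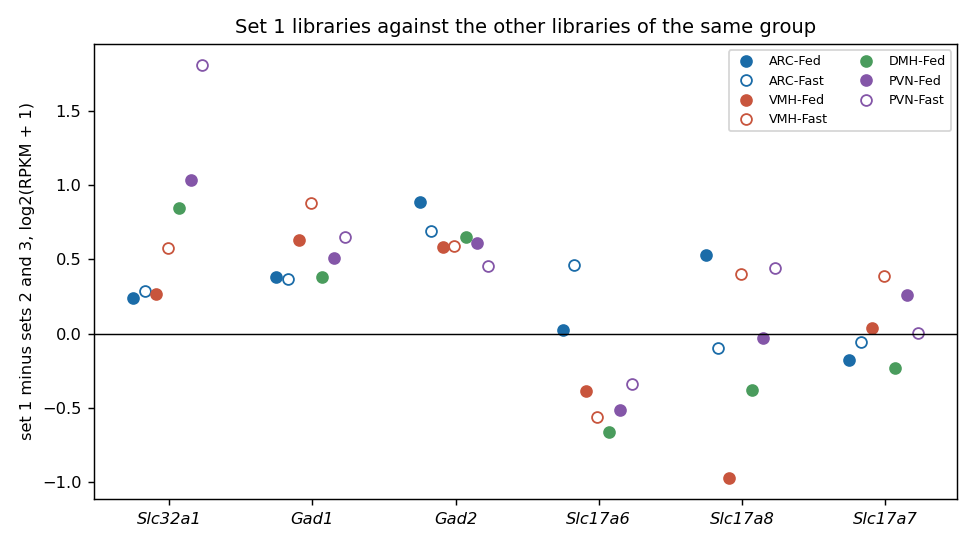
Mean log2(RPKM + 1) of the set 1 libraries of a group minus that of the set 2 and 3 libraries of the same group, for each member and the 7 groups that set 1 contributes to. All 7 groups are above 0 for Slc32a1, Gad1 and Gad2, and 5 of 7 are below 0 for Slc17a6.

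The first fasted PVN library, the only set 1 library of its group, held the highest value of Slc32a1 there. Its 20.5 RPKM stood against 7.38, 4.30, 5.85 and 3.69 in the other 4, and the fasted PVN mean of 8.35 ± 6.96 RPKM became 5.30 ± 1.66 without it. The fasting difference of Slc32a1 in the PVN went from 0.22 to −0.14 without that library. Gad2 was 71.1 RPKM there and 45.9 to 55.8 in the other 4, and Gad1 4.12 against 1.87 to 2.63. Slc17a6 was 54.8 RPKM there and 59.7 to 78.5 in the other 4. Against the other 4, this library was above for 1 (Rbfox3), below for 3 (Elavl4, Nefl and Nefm) and within range for 4 of the 8 neuron markers. Of the 6 PVN markers 3 were below (Sim1, Oxt and Avp), 1 was above (Trh) and 2 were within, and of the 5 ARC markers with values 3 were above, with Ghrh at 71.9 RPKM against 20.7 to 33.2. All 4 VMH markers were below. Of the 6 microglial markers 4 were above and 2 within, of the 6 oligodendrocyte markers 4 were below, and of the 5 endothelial markers 1 was above (Pecam1), 1 below and 3 within. The summed level of the microglial markers was 23.9 to 47.0 RPKM in this group, and no part of these genes in the Slc32a1 value was tested. The other 4 libraries are all of sets 2 and 3. A trait of this library and the offset of set 1 therefore cannot be told apart in these comparisons, those of the marker genes included.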

How the data were processed

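RNA-seq was carried out on laser-captured hypothalamic nuclei by the authors, who dissected cresyl violet stained sections, amplified total RNA (Ovation RNA-Seq System V2, which does not mark strand), sequenced single-end 50-base reads and excluded outlier samples on multidimensional scaling plots. The submitters' processing notes name CASAVA 1.7, TopHat2 2.0.11, Cufflinks 2.2.1, edgeR, limma and GRCm38. The authors deposited RPKM values per gene for 42 libraries, with no counts. The deposited RPKM values contain a small added count (5 reads on average, 1.46 to 14.5 by library), so 0 values equal 0, and low values came out as whole reads in 97.7% to 98.8% of cases (tolerance 0.02 reads). The depths given are estimates from that step, and the ratio of the deepest to the shallowest library was 9.97.

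Ensembl identifiers were mapped to symbols (35965 of 37907). Values were analysed as log2(RPKM + 1), and genes with at least 1 RPKM in at least 4 libraries were kept (33579), among them all 6 members. limma 3.58.1 in R 4.3.3 was fitted with 8 group means over all libraries and a trended prior. Differences are in log2(RPKM + 1), p-values were adjusted by Benjamini-Hochberg over all genes tested, and an adjusted p under 0.1 was called. Exact permutation tests were two-sided, on log2(RPKM + 1), over the libraries of 1 nucleus. Python 3.11.15, NumPy 2.4.6, pandas 2.3.3, SciPy 1.17.1 and matplotlib 3.10.9 were used. No library was left out, and no pair had identical values (highest correlation 0.981). The fit was tested on simulated data. The 6 members and the lists were chosen with earlier results of these data known. Named genes of a list were up to 4 per comparison, those called with the largest difference, or the gene of the highest level where none was called. Alternatives covered the pseudocount, filter, scaling, weights, library set, depth, single-nucleus fits, the replicate block and leaving out each library, and the set offset and the fit on sets 2 and 3 alone were chosen after seeing the data. Gene lengths behind the RPKM values come from the authors' annotation. Values of some genes of the lists are not reported here.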

Additional observations from a re-analysis of the deposited data

Results flagged for a closer look

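In 15 of 48 sets of member and group, the highest or lowest library stood far from the others by Dixon's gap test at 95%, and 12 of the 15 marks were in library set 1. Chance alone flags about 5% of sets where all libraries share a level. That rate is no reference here, because set 1 was offset from the other libraries of its groups, by 0.63 for Gad2 and 0.70 for Slc32a1. The marks fell on 10 libraries, 7 of them of set 1. For Gad2 they were the first fed ARC library (237.1 RPKM), the second fed VMH library (32.48), the first fed DMH library (306.9) and the second fed PVN library (107.8). For Gad1 they were the second fasted VMH library (5.538 RPKM), the first fed DMH library (34.63) and the first fed PVN library (7.164). For Slc32a1 they were the first fasted PVN library (20.53 RPKM, high) and the fourth fed ARC library (24.46, low). For Slc17a6 it was the first fed DMH library (32.13 RPKM), low against a nearest value of 49.7.

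For the transporters near the floor, Slc17a8 stood high in the second fasted ARC library (3.445 RPKM), the third fed PVN library (1.235) and the first fasted PVN library (1.226), and Slc17a7 in the second fasted VMH library (1.963) and the first fed PVN library (1.468). Gad2 was thus marked in each of the 4 nuclei of fed mice, every time as the highest value and every time in a library of set 1. The first fed DMH library was marked for Gad1, Gad2 and Slc17a6.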

How the results depend on the processing

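Of 3130 recomputed values, 2995 kept their direction and side of the threshold or stayed within range, 64 calls were lost, 17 were gained, 6 counts or means moved and 48 values changed sign, 1 of them a called difference. Over all settings 20 to 24 fed and 19 to 24 fasted differences of the members were called, and 0 with fasting or for the interaction. Whether replicate numbers pair the libraries of a mouse was not resolved. Among libraries of the same state and other nuclei, 58 same-numbered pairs had a median r of −0.0312 and a highest r of 0.0899. For 272 other-numbered pairs these values were 0.0114 and 0.0993. No pair is known to share a mouse, so the check cannot tell paired from unpaired libraries. With the replicate block the counts were 22 fed, 19 fasted, 0 with fasting and 0 for the interaction.

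Presynaptic scaling moved the median of all genes by −0.39 to 0.62 and called 28310 genes across fed and 28170 across fasted nuclei, against 4172 and 3993, and 11 GABA neuron factors instead of 7. Without set 1, 2 genes of GABA uptake and breakdown were called across the fed nuclei instead of 4, 5 of glutamate supply instead of 8, and the DMH fasting difference of Slc32a1 was 0.12. A filter of at least 5 RPKM left 3 of the forebrain glutamate factors called instead of 5. A pseudocount of 5 gave VMH balances of −4.43 fed and −4.08 fasted.

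Under presynaptic scaling ARC minus DMH turned to 0.023 fed and 0.38 fasted for Slc32a1 and 0.20 and 0.43 for Gad1, and the VMH fasting difference of Slc32a1 to 0.014. With the replicate block, fasted ARC minus DMH was 0.058 for Slc32a1 and 0.028 for Gad1. With depth as covariate, fasting differences were 0.027 (VMH) and 0.30 (DMH) for Slc32a1, and 0.011 for Gad1 and 0.041 for Gad2 in the DMH. For Slc32a1 in the DMH, array weights gave 6.67e-05 and the set covariate 0.090. Within set 1 fasting differences were 0.11 (Slc17a6, ARC), 0.31 (Slc17a8, VMH), 0.15 (Slc32a1, VMH) and −0.020 (Glul, VMH), and fed ARC minus VMH of Slc17a8 was 0.21. Within set 2 they were 0.025 (Slc32a1, DMH) and 0.067 (Gad2, PVN). Within set 3 they were 0.21 (Slc32a1, DMH) and 0.055 (Gad2, DMH), and ARC minus DMH of Gad1 was 0.033 fed and 0.031 fasted. The causes were not tested.

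Leaving out 1 library gave fasting differences of −0.19 to 0.018 for Slc17a6 in the DMH, of −0.0098 to 0.22 (ARC), −0.20 to 0.13 (VMH), −0.18 to 0.12 (DMH) and −0.14 to 0.41 (PVN) for Slc32a1, and of −0.27 to 0.044 (ARC) and −0.24 to 0.034 (PVN) for Gad2. ARC minus DMH was −0.17 to 0.045 for fasted Slc32a1, and −0.12 to 0.029 fed and −0.081 to 0.048 fasted for Gad1.

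The fits of 1 nucleus alone called 0 (ARC), 1 (VMH), 0 (DMH) and 3 (PVN) genes with fasting, against 19, 44, 8 and 24. Depth limits Slc17a7 and Slc17a8 most, at 0 to 21 reads for the former.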
